A study of Rattus norvegicus with 10 samples.

Results

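The expression of 10 genes for epithelial keratins and uroplakins was followed in kidney RNA of 5 male and 5 female PCK rats, with 1 library per rat. The members are the rows of the gene table with the symbols *Krt7*, *Krt8*, *Krt18*, *Krt19*, *Krt20*, *Krt5*, *Krt14*, *Krt15*, *Upk1b* and *Upk3a*, each of which occurred once among 32545 genes. They were chosen by name with earlier results of these libraries known, and were then split by how many libraries expressed them, so that split is a description and not a finding. The PCK rat carries a mutation of *Pkhd1* and develops the cystic kidneys of autosomal recessive polycystic kidney disease. All 10 rats had it, and no group without cysts was analysed here. By the paper, 2 pairs of parents gave the litters, and litter was not used as a factor. The paper names the tissue as cortex at an age of 10 to 12 weeks, whereas the sample labels name kidney and 12 to 14 weeks. Expression is given as FPKM, the fragments on a gene per kilobase of its length, scaled by 1 factor for each library.

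Keratins are the intermediate filament proteins of epithelia, and a filament is built from pairs of a type I and a type II chain. In simple epithelia *Krt8* and *Krt7* are the type II chains, and *Krt18*, *Krt19* and *Krt20* the type I chains. In the kidney they are known from collecting ducts and from injured tubules. *Krt5* (type II), *Krt14* and *Krt15* (type I) belong to basal cells of stratified epithelia. Uroplakins are membrane proteins that form the plaques of the urothelium, the lining of the renal pelvis and bladder. *Upk1b* is a tetraspanin that pairs with the uroplakin 3A encoded by *Upk3a*.

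Positions on the rat build Rnor_6.0 follow this division except for 1 gene. The type II genes *Krt7* (ENSRNOG00000008057, chromosome 7, 143059764 to 143075907), *Krt5* (ENSRNOG00000050420, 7, 143316920 to 143453546) and *Krt8* (ENSRNOG00000009779, 7, 143596511 to 143603803) lie on chromosome 7. The type I genes *Krt20* (ENSRNOG00000027139, 10, 87342619 to 87351045), *Krt15* (ENSRNOG00000014099, 10, 88046803 to 88050622), *Krt19* (ENSRNOG00000014233, 10, 88055841 to 88060561) and *Krt14* (ENSRNOG00000003899, 10, 88055823 to 88122233) lie on chromosome 10. *Krt18* (ENSRNOG00000047393, 7, 143629455 to 143633131) is a type I gene on chromosome 7, separated from its partner *Krt8* by 25651 bases and on the opposite strand. *Upk3a* (ENSRNOG00000013593) is on chromosome 7 from 125920357 to 125925430, and *Upk1b* (ENSRNOG00000027380) on chromosome 11 from 64522130 to 64553228.

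Sequences in front of the start were found in RefSeq (build GRCr8) for 6 members, *Krt8*, *Krt18*, *Krt20*, *Krt5*, *Upk1b* and *Upk3a*, and not for *Krt7*, *Krt19*, *Krt14* and *Krt15*. The 250 bases before the start are printed 5′ to 3′ on the gene's own strand for the neighbouring partners *Krt8* and *Krt18*, whose ratio is described here, and for *Krt5*, a basal keratin seen in essentially 1 library. Capitals mark matches, on either strand, to TATAAA (the TATA box), to GGGCGG (a GC box), to CCAAT (the CCAAT box) and to TGANTCA (the AP-1 motif).
*Krt8* (chr7:135010340-135010589, minus strand): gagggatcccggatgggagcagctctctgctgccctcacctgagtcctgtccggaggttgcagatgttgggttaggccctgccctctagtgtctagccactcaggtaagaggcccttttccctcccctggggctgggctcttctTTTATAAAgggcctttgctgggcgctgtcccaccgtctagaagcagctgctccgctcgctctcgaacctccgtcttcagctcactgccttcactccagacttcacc
*Krt18* (chr7:135035918-135036167, plus strand): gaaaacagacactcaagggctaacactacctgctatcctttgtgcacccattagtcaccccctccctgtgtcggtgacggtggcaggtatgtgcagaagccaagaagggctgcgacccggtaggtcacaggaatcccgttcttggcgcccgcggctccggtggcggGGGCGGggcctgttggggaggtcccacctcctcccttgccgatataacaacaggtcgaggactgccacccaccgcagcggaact
*Krt5* (chr7:134730570-134730819, minus strand): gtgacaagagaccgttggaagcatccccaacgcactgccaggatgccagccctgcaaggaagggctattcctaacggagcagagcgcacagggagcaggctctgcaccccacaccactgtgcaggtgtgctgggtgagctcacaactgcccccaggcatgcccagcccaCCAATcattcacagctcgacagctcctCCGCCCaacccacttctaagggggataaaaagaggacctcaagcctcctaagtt
*Krt8* has TATAAA on both strands, overlapping, at 106 and 104 bases before the start, and *Krt18* has GGGCGG at 84 bases. *Krt5* has CCAAT at 81 and GGGCGG at 54 bases. Of 33469 windows of this length in RefSeq, 12.9% held TATAAA, 30.5% GGGCGG, 34% CCAAT and 6.34% TGANTCA. None of the 6 members' windows held TGANTCA.

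Between 13912569 and 20285911 reads per library fell on genes (median 14387669 in males and 15896262 in females). Each FPKM was a whole number of reads at the gene's length, which gives the depth of every value. In each library 3 reads were taken as the limit of detection. Female 2 stood apart: mitochondrial genes took 26.8% of its reads against 14.3% to 19.1% elsewhere, and it was the highest of the 10 libraries for 18.8% of the 17631 genes that averaged 0.1 FPKM or more. Female 4 was highest for 14.5% and male 5 for 14.3%. The 6 markers of proximal tubule summed to 1296 FPKM in female 2 against 1470 to 2711 FPKM elsewhere, but of the 6 only *Aqp1* was lowest there, and the other 5 were lowest in male 5. Values without it are therefore given beside the members' results.

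By the libraries that expressed them, the 10 members fell into 3 groups. *Krt8*, *Krt7*, *Krt18*, *Krt19* and *Upk1b* had more than 3 reads in all 10 libraries, with at most 50% of their summed FPKM in any 1 library. *Krt5*, *Krt14*, *Krt15* and *Upk3a* had over 50% in 1 library, which was female 2 for all 4. *Krt20* had more than 3 reads in 4 libraries and met neither description. The member just inside the limit was *Upk1b*, with 46.0% of its summed FPKM in female 2 and at least 4 reads in each library, and the one just outside was *Krt5*, with 95.5%. Over all tested genes, 0.403% had more than 50% of their FPKM in female 2.

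*Krt8* was the most abundant member. Its expression in males 1 to 5 was 129, 105, 125, 91.2 and 132 FPKM, and in females 1 to 5 it was 106, 72.5, 106, 84.8 and 89.3 FPKM. Female 2 was the lowest of the 10 libraries, and the 2 sexes overlapped. The mean was 116 ± 17.7 FPKM in males and 91.8 ± 14.5 FPKM in females (SD, n = 5 each). *Krt7*, the other type II chain of simple epithelia, was at 90.3, 75.8, 71.1, 65.8 and 74.6 FPKM in males 1 to 5 and at 80.5, 97.0, 84.4, 66.1 and 66.9 FPKM in females 1 to 5. Here female 2 was the highest library. *Krt7* varied least of all members, with a coefficient of variation of 13.9% over the 10 libraries against 19.2% for *Krt8*.

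The type I chains were lower. *Krt18* was at 19.2, 18.5, 15.7, 12.9 and 14.6 FPKM in males 1 to 5 and at 20.9, 30.0, 16.6, 9.0 and 16.3 FPKM in females 1 to 5. Female 2 was again the highest and female 4 the lowest, 3.33-fold apart, with the males between them. RefSeq lists 6 *Krt18* pseudogenes and 1 of *Krt8*, and how the counting treated reads shared with such copies is not given in the sources used here, so the level of *Krt18* is uncertain. *Krt19*, a duct keratin, was at 10.3, 9.11, 7.58, 11.3 and 12.1 FPKM in males 1 to 5 and at 9.87, 8.83, 5.40, 3.84 and 8.13 FPKM in females 1 to 5. Females 3 and 4 lay below every male, while the other 3 females lay within the male range.

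**Figure D1:**
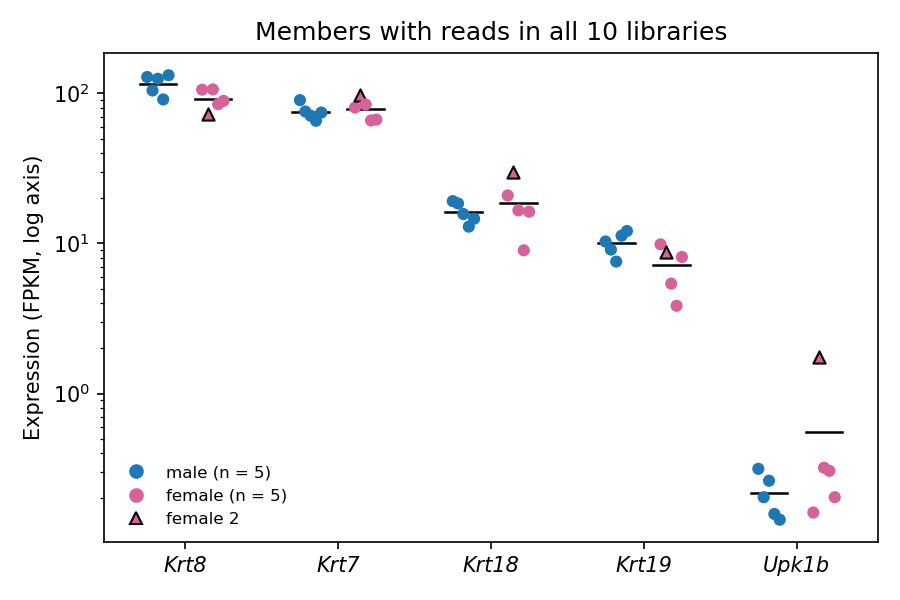
Expression in FPKM (log axis) of the 5 members with more than 3 reads in every library; each point is 1 rat, blue for males and pink for females, the triangle is female 2 and the line is the group mean. *Krt8* spans 72.5 to 132 FPKM and *Krt19* 3.84 to 12.1 FPKM, and the sexes overlap for all 5 genes.

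*Krt8* exceeded *Krt7* in 9 of 10 libraries, the exception being female 2, and their ranges overlapped. *Krt7* exceeded *Krt18*, and *Krt18* exceeded *Krt19*, in all 10. The ranges of *Krt7* and *Krt18* did not meet, and those of *Krt18* and *Krt19* overlapped. *Krt7* and *Krt8* together came to 151 to 219 FPKM, and *Krt18* and *Krt19* together to 12.8 to 38.8 FPKM, and the ratio of these sums was 4.37 to 11.8. It leaves out the other keratins of the table, such as *Krt80* and *Krt10*, and rests in part on the uncertain level of *Krt18*. Without female 2 the sum of *Krt18* and *Krt19* reached 30.8 FPKM and the ratio was 6.06 to 11.8.

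Within a library, the partners *Krt8* and *Krt18* did not keep a fixed ratio. It was 6.72, 5.67, 7.98, 7.05 and 9.05 in males 1 to 5 and 5.07, 2.42, 6.40, 9.42 and 5.48 in females 1 to 5. Without female 2 it lay between 5.07 and 9.42. Female 2 had the lowest *Krt8* and the highest *Krt18* of the 10 libraries. The ratio of *Krt8* to *Krt7* was chosen for mention after its values were seen, among 4 ratios computed between single members. It was 1.38 to 1.77 in males and 0.748 to 1.33 in females, without overlap, and 1.26 to 1.33 in the 4 females other than female 2. It was not tested.

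**Figure D2:**
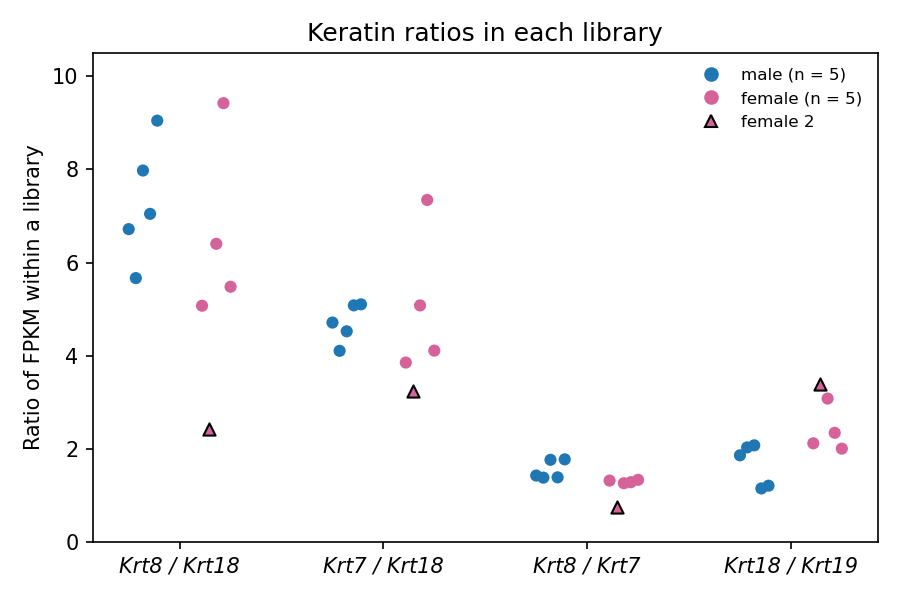
Ratio of FPKM of 2 keratins within each library; blue points are males, pink points females and the triangle female 2. *Krt8* over *Krt18* is lowest in female 2, at 2.42, and *Krt8* over *Krt7* is 1.38 to 1.77 in males and at most 1.33 in females.

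The remaining broadly detected member was *Upk1b*, at far lower levels. It was at 0.315, 0.203, 0.262, 0.157 and 0.144 FPKM for males 1 to 5 (4 to 9 reads) and at 0.161, 1.76, 0.320, 0.305 and 0.204 FPKM in females 1 to 5. The value of female 2 rests on 46 reads (1.76 FPKM, exact Poisson 95% interval 1.29 to 2.35, which covers counting error only). It was 8.66 times the median of the other 9 libraries, which lay between 0.144 and 0.320 FPKM in both sexes.

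*Krt20*, the keratin of differentiated urothelium and of injured tubules, was close to absent. It had 0 to 5 reads per library, at most 0.215 FPKM, and 0 reads in males 1 and 2 and in female 1. Where it was at 0, a count of 0 allows up to 3 reads, and 3 reads came to between 0.106 and 0.154 FPKM in the libraries. No sex difference was detectable at this depth.

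The members seen in 1 library came from female 2. *Krt15* had 104 reads there, 4.45 FPKM (exact Poisson 95% interval 3.63 to 5.39), and 0 reads in each of the other 9 libraries. With 3 reads as the limit in each other library, it was at least 35.5-fold higher in female 2. *Upk3a* had 67 reads, 4.64 FPKM (3.59 to 5.89), against 0 in each of the others, at least 22.9-fold higher. *Krt14* had 60 reads, 2.0 FPKM (1.52 to 2.57), against 0 in each of the others, at least 20.5-fold higher. *Krt5* had 18 reads, 0.404 FPKM (0.239 to 0.638), and 1 read in female 1. In the order of their levels in female 2, *Upk3a* and *Krt15* could not be told apart by their counting intervals. *Krt14* and *Upk1b* could not be told apart either, and *Krt5* was below all of these. *Krt5* and *Krt14*, the type II and type I chains of basal cells, were both seen mainly in female 2, by the same values that sorted the members. Of the partners *Upk1b* and *Upk3a*, *Upk1b* had reads in all 10 libraries and *Upk3a* in female 2 alone.

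The gene models of *Krt5* and *Krt14* bear on these values. *Krt14* is listed with a span of 66411 bases that holds all of *Krt19* on the same strand and holds or overlaps 3 further genes of that strand, among them *Krt17* in part, and *Krt5* with 136627 bases that hold or overlap 6 genes of that strand, among them *Krt1* and *Krt2*. Whether reads on shared stretches were dropped is not given in the sources used here. *Krt14* had 0 reads in the 9 libraries in which *Krt19* had 94 to 321 reads. In female 2 *Krt19* had 172 reads, within that range.

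**Figure D3:**
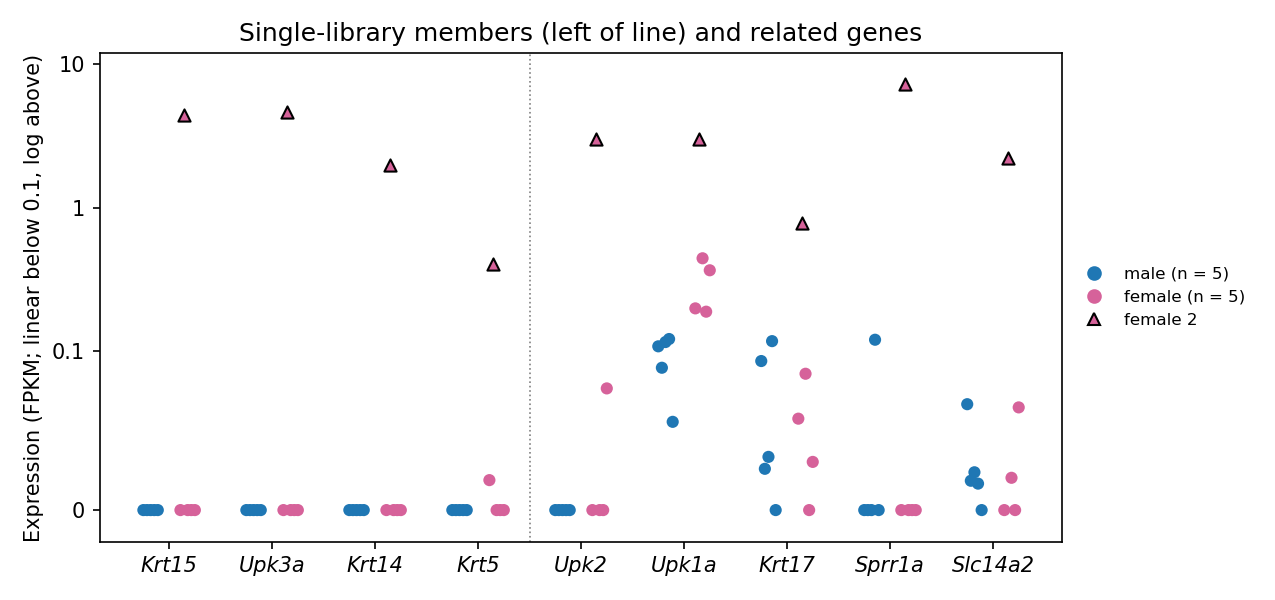
Expression in FPKM (linear below 0.1, log above) of the 4 members found almost wholly in female 2 (left of the dotted line) and of 5 related genes; blue points are males, pink points females and the triangle is female 2. Female 2 is the highest library for all 9 genes, with *Upk3a* at 4.64 and *Krt15* at 4.45 FPKM against 0 in the other 9 libraries.

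Other listed genes of the renal pelvis lining were highest in the same library, by margins that differed widely. This list was written with earlier results of these data known and supports nothing independently. Of 14 listed symbols, 12 were in the table and 11 had a read, and female 2 was the highest library for all 11. The list summed to 24.8 FPKM in female 2, against 2.44 to 2.74 FPKM in the other females and 1.96 to 4.62 FPKM in males. *Upk1a*, the tetraspanin of the other plaque pair, had 51 reads in female 2 (3.01 FPKM) and at most 0.443 FPKM elsewhere. *Upk2* had 35 reads (3.02 FPKM) and 1 read in all other libraries together. *Sprr1a*, a cornified envelope precursor, had 83 reads (7.26 FPKM) and 2 elsewhere. *Krt17*, a keratin of stratified epithelia, had 23 reads (0.787 FPKM), which are uncertain as its model overlaps that of *Krt14*, and *Psca* was at 7.58 FPKM against at most 3.04 FPKM. *Tp63*, the transcription factor of basal epithelial cells, had 10 reads in female 2 and at most 1 in any other library. The margin was small for *Grhl3* (1.06 FPKM against at most 0.979 FPKM) and for *Fgfbp1* (6 reads against at most 4). *Krt13*, a further urothelial keratin, had no read in any library, and *Krt20*, which is not on this list, had 1 read in female 2 (0.0515 FPKM), fewer than in females 3 to 5 and male 5, with 4 or 5 reads each. In bulk tissue, fewer cells of a type and less RNA per cell cannot be told apart.

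Lists for other tissues that a kidney sample can hold moved with female 2 to different extents. Of 6 epidermal genes in the table, female 2 was highest for 0. *Krt10* had 81 reads in it (2.65 FPKM) and was at 2.35 to 4.11 FPKM elsewhere. *Krt1* had 1 read in it and up to 12 elsewhere. *Krt2*, *Krt77*, *Dsg1* and *Dsc1* had at most 2 reads in any library, too few to compare. Of 6 smooth muscle genes, 4 were highest in female 2, with a sum of 223 FPKM there, 62.0 to 139 FPKM in the other females and 139.6 to 180.2 FPKM in males. Of 5 mesothelial genes, 2 were highest in female 2. Among genes of the inner medulla, *Slc14a2* (ENSRNOG00000056021), a urea transporter of the inner medullary collecting duct, had 92 reads in female 2 (2.24 FPKM) and at most 3 in any other library. A second row of that symbol (ENSRNOG00000061714) had 1 read in female 2 and 4 each in females 3 and 4. Female 2 was highest for 3 of the 5 tested rows of this list, against 18.8% of all genes. *Aqp4* was at 5.66 FPKM there and at most 3.58 FPKM elsewhere, while *Akr1b1* and *Slc12a1* were highest in other libraries. The summed list was not set apart, at 198 FPKM in female 2 and 142 to 218 FPKM elsewhere. Most of that sum is *Slc12a1*, so it says little of the other genes. Of 8 principal cell genes, 3 were highest in female 2. The part of such tissues in the values of the members was not tested.

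Ranked by the share of their FPKM in female 2, among genes with at least 50 reads there, 3 members led, *Krt14*, *Krt15* and *Upk3a* at 100%. Their place follows from the share by which they were sorted and is no separate result. *Sprr1a* (98.4%), *Anxa8* (92.8%), *Slc14a2* (91.4%) and *Upk1a* (64.1%) were also among the 10 highest. So were *Hprt1* under the identifier ENSRNOG00000048561 (84.8%) and *Ndufa1* (66.9%). Among genes with at least 50 reads in the library concerned, 30 had over 50% of their FPKM in male 5, 12 in female 2 and 11 in female 4. Over 90% was reached by 6 genes in female 2, of which 3 are these members, and by 1 each in male 5 and female 4.

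The sexes were compared by limma, fitted to log2(FPKM + 0.1) of the 17631 genes. Of the 10 members, 8 had the mean of 0.1 FPKM that the test required. *Krt20* and *Krt5* did not, and *Krt14*, *Krt15* and *Upk3a* passed only through female 2. None of the 8 passed an adjusted p of 0.05 with a log2 fold change of at least 1, against 1.32% of all genes tested, with 0.698% called lower in females. At an adjusted p of 0.05 alone it was again 0 of 8, against 2.40%, and limma-voom on the recovered reads called 0 as well. At an unadjusted p under 0.05 there were 2 of 8, against 15.7% of all genes. The ranges of the sexes overlapped for all 10 members, where 5.10% of genes tested had separate ranges.

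The 2 members were *Krt8* and *Krt19*, both lower in females by sign. For *Krt8* the log2 difference was −0.34 ± 0.14 (SE; limma adjusted p = 0.249), and −0.26 without female 2 (adjusted p = 0.289). For *Krt19* it was −0.54 ± 0.24 (SE; limma adjusted p = 0.317), and −0.63 without female 2 (adjusted p = 0.208). Neither difference was past the threshold with any 1 library left out, with limma adjusted p of 0.160 to 0.423 for *Krt8* and 0.207 to 0.519 for *Krt19*. In those fits the log2 difference was −0.43 to −0.26 for *Krt8*. For *Krt19* it was −0.67 to −0.33, smallest in size without female 4.

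*Krt7* (log2 fold change 0.06, standard error 0.12, limma adjusted p = 0.874) and *Krt18* (0.11, standard error 0.26, adjusted p = 0.892) were near 0, and without female 2 their signs turned, to −0.020 and −0.091. *Upk1b* differed by 0.63 ± 0.49 (log2, SE; limma adjusted p = 0.594), which fell to 0.14 without female 2. The fitted values of *Krt14*, *Krt15* and *Upk3a*, 0.88, 1.10 and 1.11 with standard errors of 0.81 to 0.99, stand for 1 rat, and without female 2 these genes were no longer tested. They moved with the pseudocount, to 0.32, 0.49 and 0.50 at 1 and to 1.53, 1.76 and 1.77 at 0.01, and *Upk1b* was at 0.27 and 0.76.

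**Figure D4:**
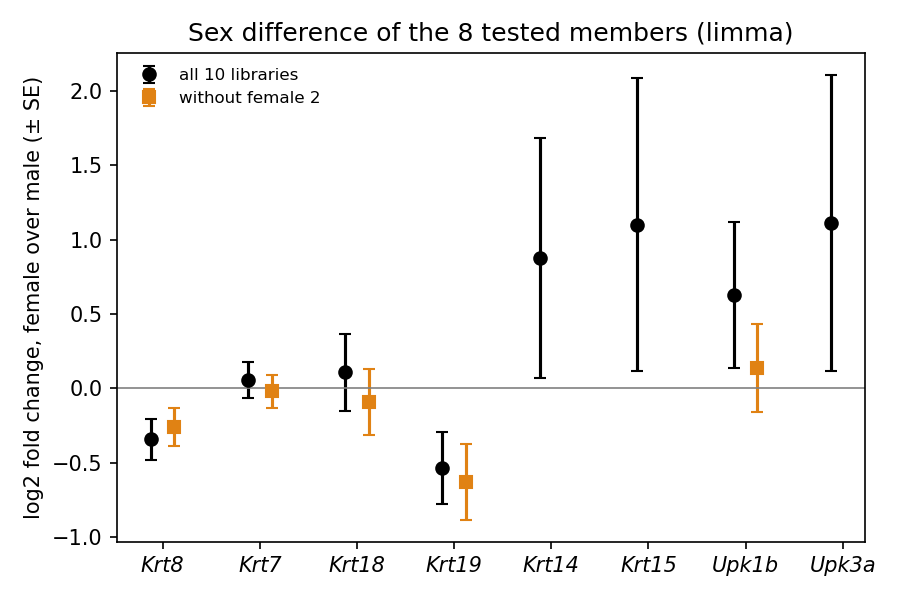
Log2 fold change of females over males with its standard error, from limma, for the 8 tested members; black circles use all 10 libraries and orange squares leave out female 2. *Krt8* and *Krt19* stay below 0, *Upk1b* moves from 0.63 to 0.14, and *Krt14*, *Krt15* and *Upk3a* have no value without female 2.

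The rest of the family gave no call either. Besides the members, 39 rows with a *Krt* number and 4 *Upk* rows were in the table, of which 30 had a read and 13 had the mean required for the test. Of these 13, 0 passed both thresholds in limma, 0 the adjusted p alone and 3 an unadjusted p of 0.05, against 1.32%, 2.40% and 15.7% of all genes, with a median log2 fold change of 0.10 against −0.01 over all genes. *Upk2* and *Krt17* passed the filter only through female 2. Without that library 11 were tested, 0 passed the adjusted p in limma and the median was 0.13. *Krt80*, a type II keratin, was the most abundant at 9.54 ± 1.72 FPKM (males) and 13.0 ± 1.55 FPKM (females), which differ by 0.46 on the log2 scale (limma adjusted p = 0.0930). It passed the adjusted p without male 1 (0.56 on the log2 scale, limma adjusted p = 0.0239) and in none of the other 9 fits that left out a library. *Krt10*, *Krt76* and *Krt23* followed among the keratins. *Krt10* was at 2.85 ± 0.386 and 3.07 ± 0.599 FPKM, *Krt76* at 1.3 ± 0.624 and 0.582 ± 0.167 FPKM, and *Krt23* at 0.802 ± 0.457 and 0.939 ± 0.236 FPKM in males and females. *Upk3bl* averaged 2.94 ± 0.570 FPKM in males, and 1.93 ± 1.66 FPKM was its female mean. *Krt1* overlaps *Krt5* in the table, and its 1 to 12 reads are uncertain.

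Genes that anchor keratin filaments to desmosomes and link them were expressed throughout. Of 13 listed symbols, 12 were in the table and all 12 were tested. In limma 0 passed both thresholds, 0 the adjusted p alone and 0 an unadjusted p of 0.05, against 1.32%, 2.40% and 15.7% of all genes. The median log2 fold change was −0.14. *Perp*, a desmosomal membrane protein, was at 78.9 ± 11.1 FPKM in males against 83.8 ± 17.7 FPKM in females. *Jup*, which encodes plakoglobin, was at 28.0 ± 5.41 and 29.0 ± 1.44 FPKM. *Dst*, which encodes dystonin, was at 18.2 ± 1.28 and 17.2 ± 2.75 FPKM, and *Dsp*, which encodes desmoplakin, at 11.0 ± 1.66 and 9.35 ± 1.91 FPKM. Female 2 was the highest library for 1 of the 12, *Pkp1*.

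Of the 10 tested transcription factors linked to keratin genes, 0 were called by limma, against 1.32% of all genes. An unadjusted p under 0.05 was reached by 1, *Elf3*, against 15.7% of all genes. *Elf3*, an epithelial ETS factor, was at 39.3 ± 0.467 FPKM in males against 31.2 ± 6.55 FPKM in females (log2 fold change −0.36, limma adjusted p = 0.223). With 1 library left out the fold change was −0.44 to −0.23. The lowest male, at 38.83 FPKM, was barely above the highest female, at 38.80 FPKM. The ranges were thus separate, as for 5.10% of genes tested. *Gata3*, a factor of ducts and urothelium, was at 21.1 FPKM in female 2 and at 7.82 to 12.0 FPKM in the other libraries, and *Tfap2b* at 12.4 FPKM in female 2 and at most 8.28 FPKM elsewhere. *Klf4* was at 8.5 ± 2.07 FPKM in males against 8.69 ± 1.66 FPKM in females. Female 2 was highest for 5 of the 10, against 18.8% of all genes.

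Vimentin, the mesenchymal filament that injured tubules also express, was at 134 ± 28.4 FPKM in males against 92.4 ± 22.1 FPKM in females (*Vim*, log2 fold change −0.54, limma adjusted p = 0.200). Of the 6 tested filament genes outside the keratins, 0 were called and 2 had an unadjusted p under 0.05, against 15.7% of all genes, and all 6 were lower in females by sign, as were 51.2% of all genes. *Lmna*, which encodes lamins of the nucleus, was at 45.0 ± 3.58 and 38.2 ± 6.55 FPKM, and *Des*, the desmin of muscle, at 13.1 ± 2.51 and 11.5 ± 1.91 FPKM.

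Markers of tubule injury are given beside *Krt19*, which was lowest in females 3 and 4. Summed, the injury list ranged over 4019 to 7841 FPKM (males), 1177 to 6402 FPKM in the females other than female 2 and 5450 FPKM in female 2, and most of that sum is *Spp1*. *Havcr1*, which encodes the kidney injury molecule, was at 24.8 FPKM in female 3 and 3.38 FPKM in female 4, below all males, and females 2 and 5, where *Krt19* was within the male range, were at 23.4 and 12.6 FPKM. *Spp1* (osteopontin) and *Clu* (clusterin) were at 888 and 208 FPKM in female 4 and at 2079 and 363 FPKM in female 5, below all males. In female 3 they were at 3388 and 595 FPKM, within the male range. Of the 8 tested genes of this list, all 8 were below every male in females 4 and 5, 5 in female 3 (*Havcr1*, *Lcn2*, *Vcam1*, *Sox9* and *Cd44*), 4 in female 2 and 2 in female 1. The share of all genes below every male in a single female was not counted, so these counts are a description. Of the 8 tested genes of this list 1 was called, *Sox9*, lower in females by −1.27 on the log2 scale (limma adjusted p = 0.0359), and the median was −0.94. Without female 2 the *Sox9* difference was still −1.27 with an adjusted p of 0.0542 (limma), and the call was lost in 7 of 10 fits that left out a library, all but those without male 1, male 4 or female 1 (adjusted p of 0.0289 to 0.0966). Of the 8, 4 had an unadjusted p under 0.05 and all 8 were lower in females by sign. Of the 8 principal cell genes, 4 had an unadjusted p under 0.05 and all 8 were higher by sign, with a median of 0.43. Over all genes tested, 15.7% had an unadjusted p under 0.05, 2.40% passed the adjusted p, 1.32% passed both thresholds and 51.2% were lower in females by sign. None of the principal cell genes passed both thresholds, and 1, *Avpr2*, passed the adjusted p alone (0.44 on the log2 scale, limma adjusted p = 0.0469). Of the 6 proximal tubule genes 1, *Cubn*, passed the adjusted p alone (0.72 on the log2 scale, limma adjusted p = 0.0467). Both lost it in 8 of 10 fits that left out a library, the limma adjusted p reaching 0.125 for *Avpr2*, which kept it without male 1 or female 2, and 0.122 for *Cubn*, which kept it without male 4 or female 2. The part of injury or of cell composition in the levels of the keratins was not tested.

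Among the genes most like *Krt8* over the 10 libraries, by Pearson's r of log2 values among 12009 named genes that averaged 1 FPKM or more, were *Itm2c*, *Hsd3b7*, *Atp9a* and *Heatr5a* (r of 0.93 to 0.94). Those most like *Krt19* were *PVR* (r = 0.94), *Capg*, *Nlrp3*, *SNORD44* and *Cdh13* (r of 0.92 to 0.93). These are among the highest of many values over 10 libraries that share their depth and composition, and are given as a description.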

How the data were processed

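Kidney RNA of 10 PCK rats (5 of each sex) was measured by RNA-seq, a library for each rat. The authors' provider mapped the reads with HISAT2 to Ensembl Rnor_6.0, and the FPKM that the authors deposited form 1 table of 32545 genes. Per the labels, the processing notes also name fastp, StringTie 1.3.3b and featureCounts 1.5.0-p3; the use of strand is not given in the sources used here. Groups were taken from the sample titles, and columns were matched to samples by the descriptions in the labels. The members and lists were chosen with earlier results of these data known.

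Reads were recovered from the FPKM and the deposited gene lengths, and came out whole (within 0.01) for 100% of values. limma (lmFit, eBayes with trend) was run on log2(FPKM + 0.1) for genes averaging 0.1 FPKM or more, with Benjamini-Hochberg adjustment over all genes, and this scale understates the change of low genes. Calls were made at adjusted p ≤ 0.05 combined with an absolute log2 fold change ≥ 1, the thresholds of the study's methods. Errors of mean FPKM are SDs over rats, and those of log2 fold changes are standard errors from limma. p-values measure the spread between these rats, of which some are littermates. The closest pair of libraries of 1 sex had a ratio of chi-square to degrees of freedom of 9.71, and no libraries were merged. The limma step was tested on simulated data.

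Named genes were the members, the 5 other keratins or uroplakins of highest mean, up to 4 genes of highest mean or called in each list, the 5 genes most like *Krt8* and *Krt19*, and the 10 most confined to female 2, of which some are not reported here. Other genes of the urothelial, inner medullary, epidermal, transcription factor and injury lists were picked for mention once their values were known, as was the ratio of *Krt8* to *Krt7*. Of the lists, *Upk3bl1*, *Krt6a*, *Trp63*, *Lor*, *Loricrin*, *Flg*, *Krtdap*, *Eppk1* and *Nes* matched no symbol and were not analysed here. R 4.3.3, limma 3.58.1, Python 3.11.15, numpy 2.4.6, pandas 2.3.3, scipy 1.17.1 and matplotlib 3.10.9 were used. Alternatives were pseudocounts of 1 and 0.01, no filter or one at 1 FPKM, median-ratio and quantile scaling, eBayes without trend or robust, the replicate number as a block, limma-voom on recovered reads, the adjusted p alone and leaving out each library. Scaling to an equal FPKM sum was added after the data were seen. The median-ratio factor of the deposited values was the same, 1.01, in all 10 libraries, so they were already on that scale.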

Additional observations from a re-analysis of the deposited data

Results flagged for a closer look

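Within the females, 1 library lay far from the other 4 for 5 of the members, and it was female 2 each time. The gap to the nearest female, as a share of the whole range over the 5 females, was 1.0 for *Krt14* (2.0 FPKM in female 2), *Krt15* (4.45 FPKM) and *Upk3a* (4.64 FPKM), 0.953 for *Krt5* (0.404 FPKM) and 0.901 for *Upk1b* (1.76 FPKM). Of 16 groups of a member and a sex with any spread, 5 were so marked by Dixon's rule at 95%, which marks about 1 in 20 groups by chance. The 5 are no separate evidence: 4 are the members already sorted as seen in 1 library from these values, a gap of 1.0 follows where the other females are all at 0, and all 5 come from the same library. *Krt8*, *Krt7*, *Krt18*, *Krt19* and *Krt20* gave no such gap in either sex.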

How the results depend on the processing

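The count of members called between the sexes was 0 in limma under all 22 alternatives, with 0 to 2 members at an unadjusted p under 0.05 and a lowest adjusted p of 0.160. Median-ratio scaling divided every library by the same factor, so it was no separate check. Of all genes, 232 were called, 137 with a pseudocount of 1, 424 with the adjusted p alone and 176 to 262 with 1 library left out. Of the members' fold changes, *Krt7* and *Krt18* turned their sign, to −0.064 and −0.014 with an equal FPKM sum in each library (added after the data were seen). With 1 library left out they lay between −0.020 and 0.124 for *Krt7* and between −0.091 and 0.34 for *Krt18*, both lowest without female 2. Values of *Krt14*, *Krt15*, *Upk3a* and *Upk1b* moved with the pseudocount by more than 1.5 times, with no call. Scaling to an equal sum moved the median of all genes by −0.12 on the log2 scale. The replicate number as a block called 176 genes and 0 members. Samples with the same number did not deviate together (correlations of −0.10 to 0.07 over 5 pairs), so the number was not taken as a pairing. Equal sums moved the share of female 2 to 10.6% for *Krt7* and 14.6% for *Krt18*, and whether it stayed the highest library for them is not given here. Depth limits *Krt20* and *Upk1b* outside female 2, where at most 5 and 10 reads fell on them.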

Other observations

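*Upk3bl*, a uroplakin 3B-like gene, divided the females. It was at 2.39, 2.93, 2.35, 3.59 and 3.42 FPKM in males 1 to 5, at 3.36 and 4.08 FPKM in females 1 and 2, and at 0.729, 0.522 and 0.967 FPKM in females 3 to 5. Females 3 to 5 lay below all males and females 1 and 2 did not (log2 fold change −0.98, limma adjusted p = 0.375, and −1.35 with 0.122 without female 2). *Upk1a* had 4 to 51 reads in females and 1 to 3 reads in males, so the ranges were 1 read apart. The log2 fold change was 1.57 (limma adjusted p = 0.213), and 0.97 without female 2 (adjusted p = 0.129).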
